A study of Mus musculus with 10 samples.

Results

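The genes described here are 32 genes of fatty acid oxidation and of the peroxisome, listed by name, and all 32 were among the 12803 genes of the deposited table. They hold 16 genes of mitochondrial enzymes (Acadm, Acadl, Acads, Acadvl, Hadh, Hadha, Hadhb, Echs1, Etfa, Etfb, Etfdh, Cpt1a, Cpt2, Decr1, Eci1 and Acaa2). A further 3 encode peroxisomal enzymes (Acaa1a, Acox3 and Hsd17b4), and 1, Eci2, encodes an enzyme found in both organelles. The other 12 are peroxins, the proteins that build peroxisomes and import their enzymes (Pex2, Pex3, Pex5, Pex6, Pex7, Pex10, Pex11a, Pex13, Pex14, Pex16, Pex19 and Pex26). No gene was left out for a low level, and 31 of the 32 had a mean above 1 RPKM over all libraries. The exception was Acox3.

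In mitochondria, fatty acids enter as carnitine esters and are then shortened in repeated rounds of dehydrogenation, hydration, a further dehydrogenation and thiolysis. Electrons of the opening step pass through the electron transfer flavoprotein to the respiratory chain. Peroxisomes carry out a related cycle on very long and branched chains, with an oxidase that makes hydrogen peroxide in the opening step, and import their folded enzymes through peroxins. In muscle stem cells, fatty acid oxidation is known as a fuel of the quiescent state, and its use changes as cells leave quiescence.

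The cells were muscle stem cells of young male C57BL/6 mice, sorted from limb muscle as CD45-, CD31-, Sca1- and VCAM+ cells, with a single animal for each library. Tubastatin A, an inhibitor of the cytoplasmic deacetylase HDAC6, was given at 40 µM during 24 h of culture to the cells of 4 libraries. Cells cultured for 24 h with DMSO, the vehicle, gave 3 libraries, and cells taken at 0 h without culture (fresh cells) gave another 3. Both kinds of culture were kept on coated plates in medium with 10% horse serum, so vehicle and fresh cells differ in time, plating, serum and DMSO together, and these cannot be told apart. No genotype other than the strain was given. Messenger RNA was amplified from 5 ng of RNA per library and read as pairs of 150 bases.

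Levels are RPKM, reads per kilobase of exon relative to a library size scaled by the authors. Each library had between 37.5M and 55.3M reads over the 12803 genes. A difference is given as a log2 change, the difference between group means of log2(RPKM + 1), with its standard error (SE). Because 1 RPKM was added, it understates the change of genes at low levels. A gene is called higher or lower at a Benjamini-Hochberg adjusted p under 0.05 from limma, fitted and adjusted over all 12803 genes. Vehicle libraries enter both the comparison with Tubastatin A and that with fresh cells, so values of both comparisons stand side by side and are not counted as independent. In bulk RNA, fewer cells of a type and less RNA per cell cannot be told apart.

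The scaling bears on every comparison with fresh cells. Reads in the table over the scaled library size lay between 0.83 and 0.889 in Tubastatin A cultures, between 0.909 and 0.928 in vehicle cultures and between 1.39 and 1.41 in fresh cells. Scaling by reads in the table instead shifted the log2 change of all genes by 0.07 between Tubastatin A and vehicle, by 0.50 between vehicle and fresh cells and by 0.56 between Tubastatin A and fresh cells. The calls were therefore repeated under 5 other scalings, and for calls of single genes among the 32 against fresh cells the number of the 6 scalings that gave them is stated. Changes of other genes and counts of other lists are given under the authors' scaling.

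Markers of other cells also differed between groups. Summed levels of 10 markers of fibro-adipogenic progenitors were 86.5 to 118.0 RPKM in Tubastatin A cultures, 64.8 to 81.7 RPKM in vehicle cultures and 1669.9 to 2147.0 RPKM in fresh cells. Most of that sum was Gsn in Tubastatin A and fresh libraries, while Col3a1 exceeded Gsn in every vehicle library. Gsn had 78.6 to 109.9 RPKM with Tubastatin A, 29.9 to 37.4 RPKM with vehicle and 1287.9 to 1422.8 RPKM in fresh cells. Col3a1 of the same list had 4.87 to 8.9 RPKM with Tubastatin A, 32.6 to 42.4 RPKM with vehicle and 192.4 to 605.2 RPKM in fresh cells, and 6 of the 10 stayed under 1 RPKM in every Tubastatin A library and 8 in every vehicle library. The sum of 9 endothelial markers was 6.25 to 6.96 RPKM with Tubastatin A, 3.34 to 4.55 RPKM with vehicle and 47.7 to 58.4 RPKM in fresh cells. For 8 stem cell markers it was 736.3 to 821.7 RPKM with Tubastatin A, 1483.7 to 1696.4 RPKM with vehicle and 1934.7 to 3037.6 RPKM in fresh cells, with none of the 8 under 1 RPKM in every library of a group. That sum was mostly Myod1 and Sdc4 in every group. Pax7 had 1.68 to 2.65 RPKM with Tubastatin A, 4.21 to 5.4 RPKM with vehicle and 15.3 to 33.2 RPKM in fresh cells. Calcr had 1.84 to 2.54, 1.12 to 1.22 and 55.0 to 98.1 RPKM in the same order. Relative to vehicle, 1 of the 8 (Calcr) was called higher with Tubastatin A (29.6% of all genes) and 6 lower (29.7%). Sums of 3 further lists were lower with Tubastatin A than in both other groups. For 8 markers of pericytes and smooth muscle the sum was 12.3 to 63.5 RPKM with Tubastatin A, 176.8 to 241.1 RPKM with vehicle and 239.2 to 292.4 RPKM in fresh cells. It was mostly Acta2 in vehicle and fresh libraries, and 6 of the 8 were under 1 RPKM in every library of each culture. For 6 tenocyte markers the sum was 5.53 to 12.5 RPKM with Tubastatin A, 66.5 to 78.1 RPKM with vehicle and 44.6 to 66.5 RPKM in fresh cells. For the 4 measured of 6 Schwann cell markers the sum was 24.1 to 30.4 RPKM with Tubastatin A, 71.3 to 82.3 RPKM with vehicle and 54.0 to 54.5 RPKM in fresh cells. It was mostly Ncam1 in every group, at 22.5 to 28.5, 70.5 to 81.1 and 41.9 to 44.9 RPKM in the same order. Of the 4, 1 was higher and 3 lower between vehicle and fresh cells, and 1 was higher and 2 lower between Tubastatin A and vehicle. Of 8 adipocyte markers, Lep and Car3 were measured, and their sum stayed at or below 0.161 RPKM in Tubastatin A cultures, 0.0591 RPKM in vehicle cultures and 1.98 RPKM in fresh cells. For the 11 measured of 12 myofibre markers the sum was 12.3 to 407.7 RPKM with Tubastatin A, 20.0 to 28.5 RPKM with vehicle and 122.4 to 179.7 RPKM in fresh cells. Its highest value was that of Tubastatin A replicate 2. Acta1, the actin of muscle fibres, had 311.0 RPKM there and 3.18 to 3.89 RPKM in the other 3 Tubastatin A libraries. It had 14.7 to 22.8 RPKM with vehicle and 34.6 to 39.1 RPKM in fresh cells. Fresh replicate 1 had 271.7 RPKM of Myod1, a gene that is induced as stem cells activate, against 1071.0 and 927.9 RPKM in fresh replicates 2 and 3. The part of these other transcripts in the differences below was not tested.

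Between Tubastatin A and vehicle, 13 of the 32 genes were higher (29.6% of all genes were) and 7 were lower (29.7% of all genes). Their median log2 change was 0.23, against 0.02 over all genes. Libraries of both groups did not overlap for 15 genes that were higher (34.8% of all genes) and 10 that were lower (33.8%). Without Tubastatin A replicate 2 the fit called 11 higher and 6 lower, where 3453 and 3542 of all genes were. Without fresh replicate 1 it called 15 and 8, where 4139 and 4097 of all genes were. The share of the 32 called in either direction, 62.5%, was close to the 59.3% of all genes, as were 62.5% against 67.0% between vehicle and fresh cells and 65.6% against 64.9% between Tubastatin A and fresh cells. Of these 12 peroxins 7 were higher and 2 lower, with a median of 0.37, and without Tubastatin A replicate 2 these counts were 5 and 2. Of the 16 mitochondrial genes 4 were higher and 5 lower, with a median of -0.06. The 13 higher calls were made under all 6 scalings, and so were 6 of the 7 lower ones, the exception being Acaa2.

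Between vehicle and fresh cells, 5 of the 32 were higher (32% of all genes) and 15 were lower (35.0%), with a median log2 change of -0.22 against -0.03 over all genes. Groups did not overlap for 6 genes that were higher (31.8% of all genes) and 15 that were lower (35.8%). The balance of this comparison turned round with the scaling: by reads in the table as the scale, 19 of the 32 were higher and 3 lower, where 6365 and 2905 of all genes were. Only 8 calls were made in the same direction under all 6 scalings. Acads, Cpt2, Pex2, Pex10 and Pex11a were higher in vehicle cultures, and Acadvl, Acaa1a and Pex5 were lower. These 8 calls were also made whichever single library was left out. Without fresh replicate 2 the fit called 8 genes higher and 15 lower, and counts over all genes are not given for that fit. Without fresh replicate 1 it called 6 and 12, where 4213 and 4500 of all genes were. Without Tubastatin A replicate 2 it called 5 and 12, where 4001 and 4377 of all genes were.

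Between Tubastatin A and fresh cells, 11 were higher (29.8% of all genes) and 10 were lower (35.2%), with a median of -0.00 against -0.03 over all genes. Groups did not overlap for 9 that were higher (28.0% of all genes) and 9 that were lower (33.3%). All 11 higher calls were made under the 6 scalings, and none of the 10 lower ones was. Scaled by reads in the table, 23 were higher and 1 was lower, where 6916 and 2590 of all genes were. Without fresh replicate 1 the fit called 9 higher and 9 lower, where 3907 and 4569 of all genes were. Without Tubastatin A replicate 2 it called 9 and 7, where 3511 and 4290 of all genes were. Over the 3 comparisons, 30 of the 32 genes were called in at least 1. Hadha and Hsd17b4 were called in none under the authors' scaling.

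**Figure D1:**
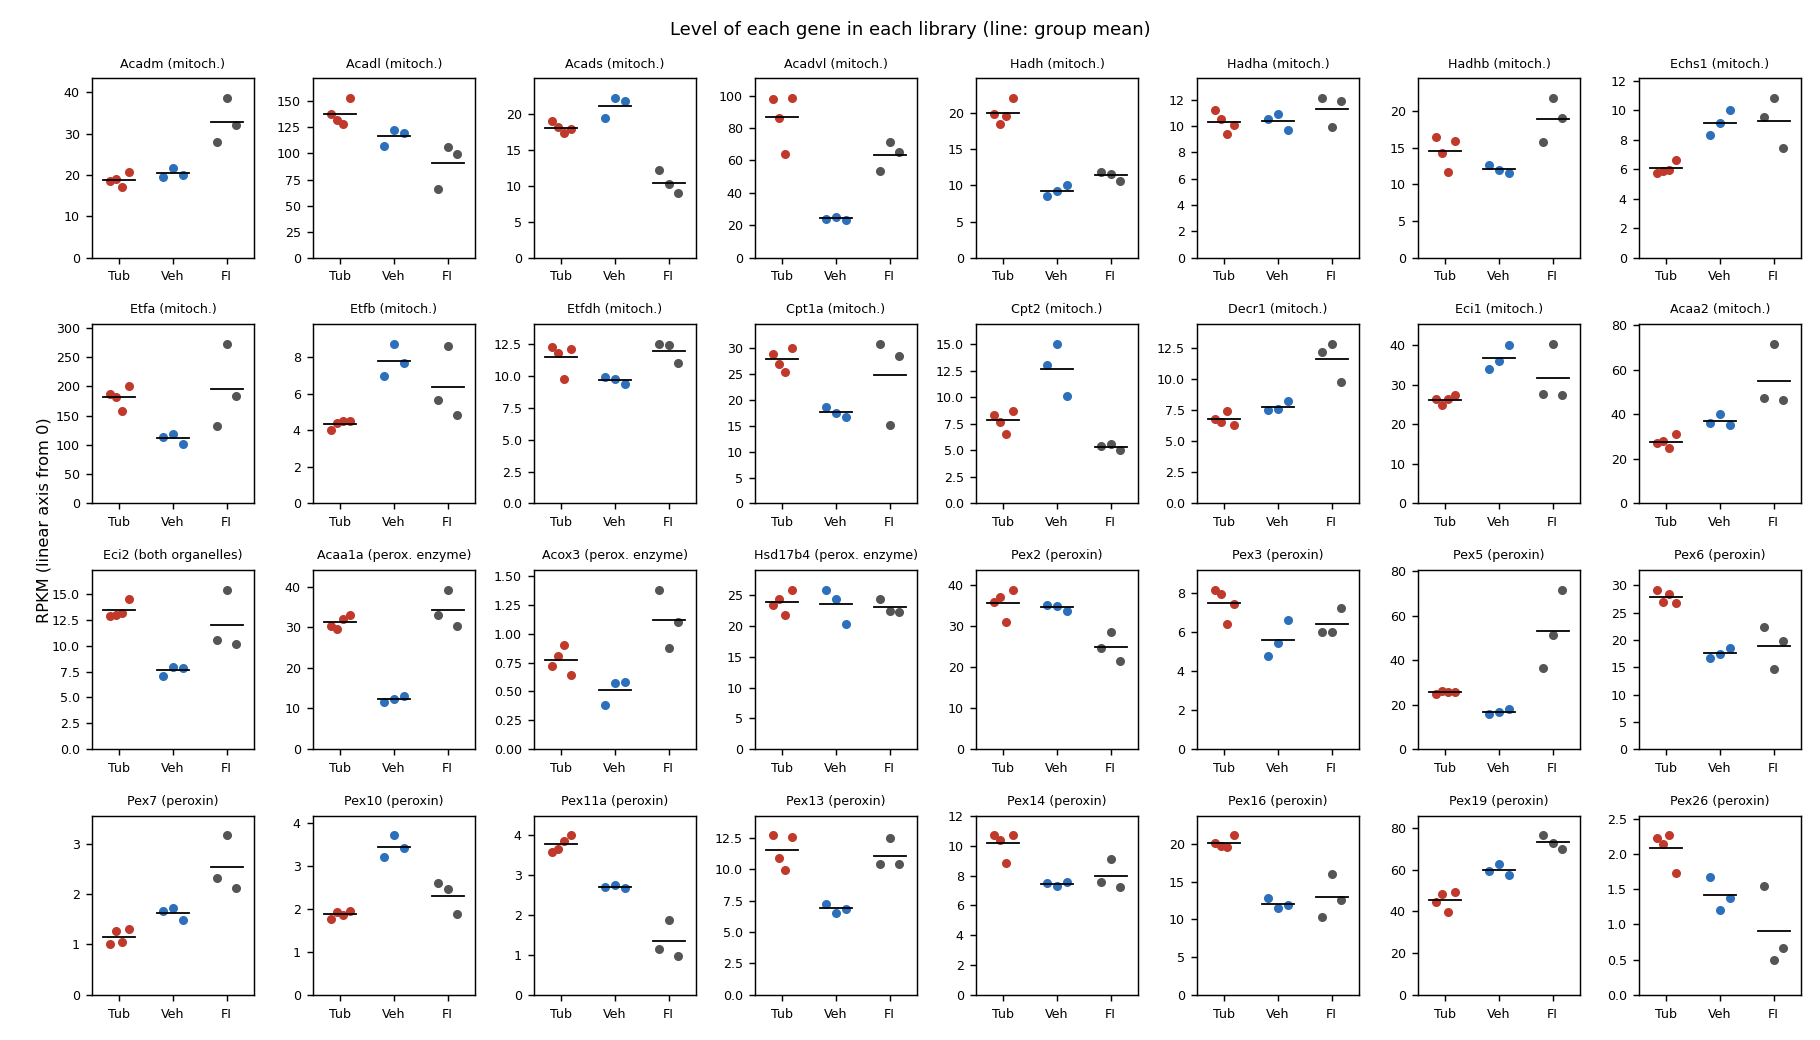
Level of each of the 32 genes (RPKM, linear axis from 0) in each library, with 4 Tubastatin A (Tub), 3 vehicle (Veh) and 3 fresh (FI) libraries as points and the group mean as a line. Vehicle cultures lie below every Tubastatin A and fresh library for Acadvl and Acaa1a, and also for Hadh, Etfa, Eci2, Acox3, Pex5 and Pex13. The libraries of all groups overlap for Hadha and Hsd17b4.

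Among the genes of entry into mitochondria, both carnitine palmitoyltransferases moved in opposite directions with Tubastatin A. Cpt1a, in the outer membrane, couples long chains to carnitine. Its level was 28.8, 27.0, 25.4 and 30.1 RPKM in Tubastatin A cultures, 18.6, 17.5 and 16.7 RPKM in vehicle cultures and 30.8, 15.2 and 28.5 RPKM in fresh cells. All Tubastatin A libraries lay above all vehicle libraries, and fresh replicate 2 lay below every culture. The log2 change of Cpt1a was 0.63 (SE 0.19) between Tubastatin A and vehicle, with an adjusted p of 0.015. That call was lost without vehicle replicate 3, where the change was 0.59 and the adjusted p was 0.052. Between vehicle and fresh cells the change was -0.41 with an adjusted p of 0.1, and it was -0.72 with an adjusted p of 8.7e-05 without fresh replicate 2. Cpt2, in the inner membrane, releases the chain from carnitine again. It had 8.37, 7.62, 6.57 and 8.67 RPKM with Tubastatin A, 13.0, 15.0 and 10.1 RPKM with vehicle and 5.42, 5.58 and 5.02 RPKM in fresh cells. The 3 groups did not overlap. Cpt2 fell by 0.63 (SE 0.14, adjusted p = 0.0022) with Tubastatin A relative to vehicle. It was higher than in fresh cells by 1.09 (SE 0.15, adjusted p = 4.1e-05) in vehicle cultures and by 0.47 (SE 0.14, adjusted p = 0.011) in Tubastatin A cultures, both under all 6 scalings.

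The 4 acyl-CoA dehydrogenases, which open each round for chains of different length, did not move together. Acadvl acts on very long chains, and of the 32 genes it had the highest log2 change between Tubastatin A and vehicle. It had 98.0, 86.4, 64.0 and 98.3 RPKM in Tubastatin A cultures, 24.1, 25.3 and 23.3 RPKM in vehicle cultures and 53.6, 71.1 and 65.2 RPKM in fresh cells. Vehicle cultures lay below every other library, while Tubastatin A and fresh libraries overlapped at Tubastatin A replicate 3. The log2 change was 1.78 (SE 0.16, adjusted p = 1.8e-06) with Tubastatin A relative to vehicle, a 3.43-fold difference of RPKM + 1. It was -1.34 (SE 0.17, adjusted p = 1.9e-05) between vehicle and fresh cells, under all 6 scalings. It was 0.44 (SE 0.16, adjusted p = 0.028) between Tubastatin A and fresh cells under all 6 scalings, a call that was lost without any 1 of 5 libraries, fresh replicate 1 among them, where the change was 0.32.

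Reads of Acadvl overlap another gene. Of its 2686 exon bases on chromosome 11 (minus strand), 42.9% are also exon of Dvl2 on the opposite strand, and whether the authors counted by strand is not given in the sources used here. Dvl2, a signalling gene of the Wnt pathway, had 12.2, 12.3, 10.7 and 11.6 RPKM in Tubastatin A cultures, 13.8, 13.2 and 11.7 RPKM in vehicle cultures and 10.5, 6.04 and 6.62 RPKM in fresh cells. Its log2 change was -0.13 (adjusted p = 0.5) between Tubastatin A and vehicle and, under the authors' scaling, 0.71 (adjusted p = 0.0026) between vehicle and fresh cells. The part of the shared bases in the changes of Acadvl was not tested.

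Acadm, for medium chains, had 18.6, 19.0, 17.0 and 20.8 RPKM with Tubastatin A, 19.6, 21.7 and 19.9 RPKM with vehicle and 27.9, 38.5 and 32 RPKM in fresh cells. Both cultures overlapped each other and lay below all fresh libraries. The change was -0.65 (SE 0.13, adjusted p = 0.00075) between vehicle and fresh cells and -0.76 (SE 0.12, adjusted p = 0.00016) between Tubastatin A and fresh cells. Each of these calls was made under 3 of 6 scalings, and the change shrank to -0.06 under another. It was -0.11 (SE 0.12, adjusted p = 0.46) between Tubastatin A and vehicle. Acads, for short chains, had 18.9, 18.1, 17.3 and 17.8 RPKM with Tubastatin A, 19.4, 22.1 and 21.7 RPKM with vehicle and 12.1, 10.2 and 8.94 RPKM in fresh cells. Every culture lay above every fresh library. The change was 0.74 (SE 0.11, adjusted p = 0.0001) between Tubastatin A and fresh cells and 0.96 (SE 0.12, adjusted p = 2e-05) between vehicle and fresh cells, both under all 6 scalings. Acadl, for long chains, had 137.7, 131.7, 128.4 and 152.8 RPKM with Tubastatin A, 107.1, 122.9 and 119.7 RPKM with vehicle and 65.6, 105.9 and 99.6 RPKM in fresh cells. Per length it was the most abundant of the 4 in every library, and no groups overlapped. Its change between Tubastatin A and fresh cells was 0.63 (SE 0.16, adjusted p = 0.0046), called under all 6 scalings. Between vehicle and fresh cells it was 0.39 (SE 0.17, adjusted p = 0.062), not called under the authors' scaling but called higher under the 5 others, at up to 0.99. Between Tubastatin A and vehicle it was 0.24 (adjusted p = 0.22) and was called higher under 2 of 6 scalings.

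Stretches upstream of Acadvl and Acadm are shown because these dehydrogenases of the same step differed in their response to Tubastatin A and because both stretches hold a match to the core motif of nuclear receptors, AGGTCA. That motif was searched on both strands in the 250 bases upstream of each RefSeq start and was found in 10.1% of 9980 genes of the table. It was found for 4 of the 27 of these genes with a RefSeq promoter entry (Acadm, Echs1, Acadvl and Cpt1a). A match describes these letters and is not a measured binding site. The Acadm stretch was moved upstream so as to hold its match. Its near end lies 141 bases from the RefSeq start, against 1 base for the Acadvl stretch. The Acadvl stretch is chr11:70015429-70015538 (minus strand) and the Acadm stretch is chr3:153944784-153944893 (minus strand), both from RefSeq on GRCm38.p6, printed 5′ to 3′ in the direction of the gene, with the motif or its reverse complement in capitals.
Acadvl: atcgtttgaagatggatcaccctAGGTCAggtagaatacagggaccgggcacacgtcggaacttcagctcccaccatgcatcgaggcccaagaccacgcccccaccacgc
Acadm: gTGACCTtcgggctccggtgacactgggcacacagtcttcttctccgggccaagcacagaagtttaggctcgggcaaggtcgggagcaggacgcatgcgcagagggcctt

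Electrons of this step are taken up by the electron transfer flavoprotein, a dimer of the products of Etfa and Etfb. Etfa had 187.1, 181.3, 157.7 and 201.3 RPKM in Tubastatin A cultures, 113.2, 119.4 and 101.9 RPKM in vehicle cultures and 132, 272.2 and 184.2 RPKM in fresh cells. Vehicle cultures were lowest and fresh libraries spanned the widest range. Etfa was higher with Tubastatin A than with vehicle by 0.70 (SE 0.20, adjusted p = 0.012), and -0.75 (SE 0.22, adjusted p = 0.0095) was its change between vehicle and fresh cells, under 3 of 6 scalings. Etfb had 4.01, 4.39, 4.52 and 4.52 RPKM with Tubastatin A, 6.95, 8.72 and 7.67 RPKM with vehicle and 5.66, 8.61 and 4.84 RPKM in fresh cells. All Tubastatin A libraries lay below all others. Relative to vehicle, Etfb fell by 0.71 (SE 0.16, adjusted p = 0.0024). It rests on 175 to 435 reads per library, and 58.2% of its exon bases are also exon of other genes, Gm45233 and Mir7051, on the same strand. Etfdh, which passes the electrons on to ubiquinone, ranged from 9.74 to 12.3 RPKM with Tubastatin A, from 9.4 to 9.93 RPKM with vehicle and from 11.0 to 12.5 RPKM in fresh cells. Its change between Tubastatin A and vehicle was 0.22 (adjusted p = 0.1). Its change between vehicle and fresh cells, -0.28 (adjusted p = 0.049), was called lower under 1 scaling and higher under 2, and was lost in 8 of 10 fits that left out a library.

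Of the later steps of the round, Hadh stood apart. It encodes the hydroxyacyl-CoA dehydrogenase for medium and short chains. It had 19.9, 18.4, 19.6 and 22.0 RPKM in Tubastatin A cultures, 8.53, 9.21 and 10.0 RPKM in vehicle cultures and 11.9, 11.6 and 10.6 RPKM in fresh cells. Tubastatin A cultures were above all other libraries. The change was 1.03 (SE 0.10, adjusted p = 4.7e-06) relative to vehicle and 0.76 (SE 0.10, adjusted p = 4.1e-05) relative to fresh cells, both under all 6 scalings. Between vehicle and fresh cells the change was -0.27 (SE 0.11, adjusted p = 0.044). That call was lost in 8 of 10 fits that left out a library, and the change was called higher under 2 scalings.

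Hadha and Hadhb encode the alpha and beta subunits of the trifunctional protein of long chains and lie head to head on chromosome 5. Hadha had 11.2, 10.5, 9.4 and 10.1 RPKM with Tubastatin A, 10.5, 10.9 and 9.7 RPKM with vehicle and 12.1, 9.89 and 11.9 RPKM in fresh cells. The groups overlapped, and its change between Tubastatin A and vehicle was -0.01 (SE 0.11, adjusted p = 0.95). Relative to fresh cells it was called higher under 3 of 6 scalings in each culture, at up to 0.54 with Tubastatin A and 0.44 with vehicle. Hadhb had 16.5, 14.3, 11.7 and 15.9 RPKM with Tubastatin A, 12.6, 12.0 and 11.5 RPKM with vehicle and 15.8, 21.7 and 19.0 RPKM in fresh cells. Its change was 0.25 (SE 0.14, adjusted p = 0.14) between Tubastatin A and vehicle, and -0.59 (SE 0.15, adjusted p = 0.0035) between vehicle and fresh cells, under 3 of 6 scalings. It was -0.35 (adjusted p = 0.043) between Tubastatin A and fresh cells, called lower under 1 scaling and higher under 2, and lost in 7 of 10 fits that left out a library. The bases between both genes, chr5:30155163-30155247, are shown on the strand of Hadhb (plus) from RefSeq on GRCm38.p6, since 1 short stretch lies upstream of both subunits. Capitals mark GC boxes, GGGCGG or its reverse complement, a motif found on either strand in 60.8% of the 9980 genes and in 17 of the 27.
Hadha and Hadhb: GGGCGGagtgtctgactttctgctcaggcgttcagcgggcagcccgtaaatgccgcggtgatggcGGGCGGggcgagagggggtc

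Echs1, the hydratase for short chains, had 5.75, 5.9, 5.93 and 6.62 RPKM with Tubastatin A, 8.33, 9.16 and 10.0 RPKM with vehicle and 9.56, 10.8 and 7.46 RPKM in fresh cells. Tubastatin A cultures were below all others, and relative to vehicle Echs1 fell by 0.53 (SE 0.13, adjusted p = 0.004). Acaa2, the thiolase that ends the round, had 27.1, 27.8, 24.7 and 31.3 RPKM with Tubastatin A, 36.2, 39.9 and 35.0 RPKM with vehicle and 47.4, 71.4 and 46.4 RPKM in fresh cells. The 3 groups did not overlap, in the order of increasing level just given. Its change relative to vehicle was -0.41 (SE 0.15, adjusted p = 0.035), a call that was lost without any 1 of 6 libraries. It was -0.45 without vehicle replicate 3 and -0.35 without vehicle replicate 2. Its change relative to fresh cells was -0.94 (SE 0.15, adjusted p = 0.00017) in Tubastatin A cultures under 4 of 6 scalings and -0.53 (SE 0.16, adjusted p = 0.011) in vehicle cultures under 3.

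The enzymes that handle unsaturated chains were lower with Tubastatin A or not called, apart from Eci2. Eci1, the mitochondrial enoyl-CoA isomerase, had 26.3, 25.0, 26.3 and 27.4 RPKM with Tubastatin A, 34.0, 36.1 and 40.1 RPKM with vehicle and 27.6, 40.3 and 27.4 RPKM in fresh cells. It fell by 0.47 (SE 0.13, adjusted p = 0.011) relative to vehicle, a call that was lost without vehicle replicate 3, with a change of -0.40. Decr1, the dienoyl-CoA reductase, ranged from 6.32 to 7.4 RPKM with Tubastatin A, from 7.48 to 8.21 RPKM with vehicle and from 9.73 to 12.8 RPKM in fresh cells. Its change was -0.17 (adjusted p = 0.21) relative to vehicle, and -0.69 (adjusted p = 0.00023) relative to fresh cells under 3 of 6 scalings. Eci2, an isomerase of mitochondria and peroxisomes, had 12.9, 13.0, 13.2 and 14.5 RPKM with Tubastatin A, 7.08, 7.92 and 7.86 RPKM with vehicle and 10.5, 15.4 and 10.2 RPKM in fresh cells. Vehicle cultures were below all others. It was higher with Tubastatin A than with vehicle by 0.74 (SE 0.14, adjusted p = 0.00058), and its change between vehicle and fresh cells was -0.57 (SE 0.14, adjusted p = 0.004), under 3 of 6 scalings.

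Of the peroxisomal enzymes, Acaa1a, the thiolase, showed the lowest level in vehicle cultures and like levels in the other groups. It had 30.2, 29.5, 32 and 33.0 RPKM in Tubastatin A cultures, 11.5, 12.3 and 13.1 RPKM in vehicle cultures and 33.0, 39.2 and 30.2 RPKM in fresh cells. Every vehicle library lay below every other library, and Tubastatin A and fresh libraries overlapped. The change was 1.28 (SE 0.11, adjusted p = 1.4e-06) between Tubastatin A and vehicle and -1.40 (SE 0.12, adjusted p = 6.3e-07) between vehicle and fresh cells, both under all 6 scalings. It was -0.12 (SE 0.11, adjusted p = 0.35) between Tubastatin A and fresh cells, and under 3 scalings it was called higher, at up to 0.58. Of its exon bases 6.57% are also exon of Myd88, an adaptor of innate immune receptors on the opposite strand. Myd88 had 19.8 to 24.6 RPKM with Tubastatin A, 21.6 to 22.6 RPKM with vehicle and 180.3 to 225.1 RPKM in fresh cells, with a change of -0.05 (adjusted p = 0.71) between Tubastatin A and vehicle and of -3.11 (adjusted p = 1.4e-09) between vehicle and fresh cells. Acaa1b, a near-identical copy of Acaa1a, was not analysed here, and how reads of both were divided is not given in the sources used here.

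Hsd17b4, the bifunctional enzyme of the middle steps, had 23.5, 24.4, 21.8 and 25.9 RPKM with Tubastatin A, 25.9, 24.4 and 20.3 RPKM with vehicle and 24.4, 22.5 and 22.3 RPKM in fresh cells. The groups overlapped, with changes of 0.02 (SE 0.11, adjusted p = 0.87) between Tubastatin A and vehicle and 0.02 (SE 0.12, adjusted p = 0.89) between vehicle and fresh cells. Relative to fresh cells it was called higher under 3 of 6 scalings in each culture, at up to 0.74 with Tubastatin A and 0.60 with vehicle. Acox3, an oxidase of branched chains, had the lowest mean level per length of the 32 over all libraries. It ranged from 0.641 to 0.903 RPKM with Tubastatin A, from 0.38 to 0.583 RPKM with vehicle and from 0.876 to 1.38 RPKM in fresh cells. Its change was 0.22 (SE 0.10, adjusted p = 0.074) relative to vehicle, and -0.48 (SE 0.11, adjusted p = 0.0018) between vehicle and fresh cells, under 4 of 6 scalings. It was -0.26 (adjusted p = 0.041) between Tubastatin A and fresh cells, under 1 scaling and lost in 7 of 10 fits that left out a library.

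Upstream stretches of Hadh and Acaa1a are shown because, with Acadvl, they had the highest log2 changes of the 32 between Tubastatin A and vehicle. The Hadh stretch is chr3:131272102-131272211 (minus strand) and the Acaa1a stretch is chr9:119341184-119341293 (plus strand), both from RefSeq on GRCm38.p6. The Acaa1a stretch ends next to the RefSeq start and lies within the longer span of the gene in the GENCODE annotation used for exon length, which begins at base 119339676. Capitals mark GC boxes as above, and in Acaa1a also a CCAAT box on the reverse strand, a motif found on either strand in 36.7% of the 9980 genes and in 9 of the 27. Neither of the 250-base windows of these genes held AGGTCA.
Hadh: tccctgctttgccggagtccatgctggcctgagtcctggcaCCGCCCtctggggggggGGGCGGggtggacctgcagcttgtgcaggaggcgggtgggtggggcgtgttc
Acaa1a: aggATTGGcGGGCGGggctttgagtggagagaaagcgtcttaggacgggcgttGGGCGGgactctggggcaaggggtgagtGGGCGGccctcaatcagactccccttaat

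**Figure D2:**
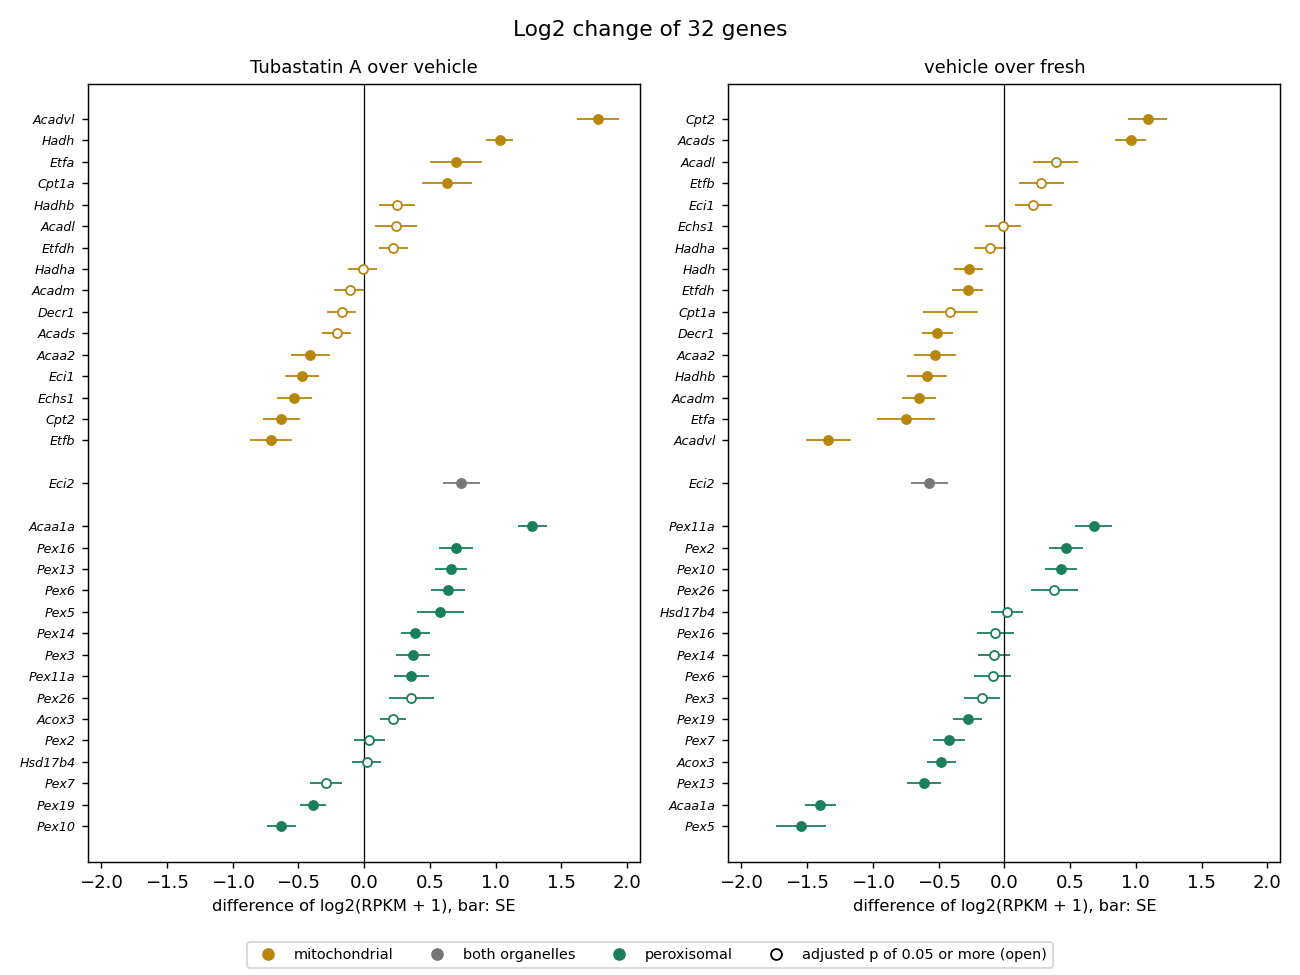
Log2 change of each gene, as the difference of mean log2(RPKM + 1) with its SE, between Tubastatin A and vehicle on the left and between vehicle and fresh cells on the right, with open points for an adjusted p of 0.05 or more. Acadvl, Acaa1a and Hadh have the highest changes on the left and Pex5, Acaa1a and Acadvl the lowest on the right. Signs on the right hold under the authors' scaling. Once libraries are scaled by reads instead, 19 genes were called higher and 3 lower, where 6365 and 2905 of all genes were.

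Among the peroxins of the import route, Pex5, Pex6, Pex13 and Pex14 were higher with Tubastatin A than with vehicle and Pex10 was lower. Pex5, the receptor that carries most enzymes to the peroxisome, had 24.7, 26.2, 25.9 and 25.7 RPKM in Tubastatin A cultures, 15.7, 16.9 and 17.9 RPKM in vehicle cultures and 36.3, 51.5 and 71.7 RPKM in fresh cells. The 3 groups did not overlap, and fresh libraries were spread over a wider range than cultures. The change was 0.58 (SE 0.18, adjusted p = 0.014) between Tubastatin A and vehicle, a call that was lost without vehicle replicate 1, where the change was 0.53. It was -1.55 (SE 0.19, adjusted p = 1.6e-05) between vehicle and fresh cells under all 6 scalings, and -0.97 (SE 0.18, adjusted p = 0.00044) between Tubastatin A and fresh cells under 4. Pex7, the receptor for the smaller class of cargo that includes the thiolase, had 1.01, 1.26, 1.04 and 1.3 RPKM with Tubastatin A, 1.66, 1.72 and 1.49 RPKM with vehicle and 2.32, 3.16 and 2.12 RPKM in fresh cells. These groups did not overlap either, but the lowest level was that with Tubastatin A. The change of Pex7 relative to vehicle was -0.29 (SE 0.12, adjusted p = 0.052). Relative to fresh cells it was -0.71 (SE 0.12, adjusted p = 0.00021) with Tubastatin A under 5 of 6 scalings and -0.42 (SE 0.12, adjusted p = 0.01) with vehicle under 3.

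The docking partners of the receptors at the membrane are Pex13 and Pex14. Pex13 had 12.7, 10.9, 9.91 and 12.6 RPKM with Tubastatin A, 7.24, 6.55 and 6.86 RPKM with vehicle and 10.4, 12.5 and 10.4 RPKM in fresh cells. Vehicle cultures were below all others. It was higher with Tubastatin A than with vehicle by 0.66 (SE 0.12, adjusted p = 0.00045), and its change between vehicle and fresh cells was -0.61 (SE 0.13, adjusted p = 0.00098), under 3 of 6 scalings. Pex14 had 10.7, 10.4, 8.86 and 10.7 RPKM with Tubastatin A, 7.52, 7.29 and 7.57 RPKM with vehicle and 7.59, 9.15 and 7.21 RPKM in fresh cells. It was higher with Tubastatin A than with vehicle by 0.39 (SE 0.11, adjusted p = 0.0097), and 28.3% of its exon bases are also exon of Gm17029 on the opposite strand.

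Pex2 and Pex10 are ligases of the same membrane complex, which marks the receptors with ubiquitin for recycling, and they differed. Pex10 had 1.75, 1.92, 1.86 and 1.94 RPKM with Tubastatin A, 3.19, 3.7 and 3.42 RPKM with vehicle and 2.59, 2.45 and 1.87 RPKM in fresh cells. Vehicle cultures were above all other libraries. It fell by 0.63 (SE 0.11, adjusted p = 0.00041) with Tubastatin A relative to vehicle, and was higher in vehicle cultures than in fresh cells by 0.43 (SE 0.12, adjusted p = 0.0065), under all 6 scalings. Pex2 had 35.7, 37.0, 31.0 and 38.8 RPKM with Tubastatin A, 35.2, 34.8 and 33.7 RPKM with vehicle and 24.7, 28.5 and 21.4 RPKM in fresh cells. Both cultures lay above fresh cells and overlapped each other. Its change was 0.04 (SE 0.12, adjusted p = 0.8) between Tubastatin A and vehicle, 0.47 (SE 0.13, adjusted p = 0.0056) between vehicle and fresh cells and 0.51 (SE 0.12, adjusted p = 0.0024) between Tubastatin A and fresh cells. Both changes relative to fresh cells were called under all 6 scalings.

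Pex6 is an ATPase that pulls the marked receptors out of the membrane, and Pex26 is its anchor. Pex6 had 29.2, 26.9, 28.4 and 26.7 RPKM with Tubastatin A, 16.7, 17.4 and 18.6 RPKM with vehicle and 22.3, 14.7 and 19.9 RPKM in fresh cells. Tubastatin A cultures were above all other libraries. The change was 0.64 (SE 0.13, adjusted p = 0.0011) relative to vehicle and 0.55 (SE 0.13, adjusted p = 0.0027) relative to fresh cells, both under all 6 scalings. Pex26 had 2.22, 2.14, 2.26 and 1.73 RPKM with Tubastatin A, 1.67, 1.2 and 1.37 RPKM with vehicle and 1.55, 0.496 and 0.659 RPKM in fresh cells, from 83 to 784 reads per library. Its change was 0.36 (SE 0.17, adjusted p = 0.084) relative to vehicle and 0.74 (SE 0.17, adjusted p = 0.002) relative to fresh cells, the second called under all 6 scalings.

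Pex3, Pex16 and Pex19 place proteins in the peroxisomal membrane. Pex16 had 20.1, 19.7, 19.6 and 21.1 RPKM with Tubastatin A, 12.8, 11.5 and 11.9 RPKM with vehicle and 10.3, 16.0 and 12.5 RPKM in fresh cells. Tubastatin A cultures were above all other libraries, by 0.70 (SE 0.13, adjusted p = 0.00062) relative to vehicle and by 0.62 (SE 0.13, adjusted p = 0.0012) relative to fresh cells, both under all 6 scalings. Pex19, the soluble carrier of membrane proteins, had 44.4, 48.1, 39.8 and 49.4 RPKM with Tubastatin A, 59.5, 62.6 and 57.4 RPKM with vehicle and 76.3, 72.6 and 70.0 RPKM in fresh cells. The 3 groups did not overlap. Pex19 fell by 0.39 (SE 0.10, adjusted p = 0.0066) with Tubastatin A relative to vehicle. Its change relative to fresh cells was -0.68 (SE 0.10, adjusted p = 0.00013) with Tubastatin A, under 3 scalings, and -0.28 (SE 0.11, adjusted p = 0.043) with vehicle. The last was called lower under 1 scaling and higher under 2, and was lost in 7 of 10 fits that left out a library. Pex3, the membrane partner of Pex19, ranged from 6.43 to 8.16 RPKM with Tubastatin A, from 4.78 to 6.59 RPKM with vehicle and from 5.99 to 7.24 RPKM in fresh cells. Its change relative to vehicle was 0.37 (SE 0.13, adjusted p = 0.029), with overlapping libraries, and the call was lost in 5 of 10 fits that left out a library, with changes down to 0.27 without vehicle replicate 1.

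Pex11a, which takes part in the elongation and division of peroxisomes, had 3.58, 3.65, 3.85 and 3.99 RPKM with Tubastatin A, 2.69, 2.74 and 2.68 RPKM with vehicle and 1.16, 1.87 and 0.981 RPKM in fresh cells. No groups overlapped. Relative to fresh cells its change was 1.05 (SE 0.13, adjusted p = 2.1e-05) with Tubastatin A and 0.68 (SE 0.14, adjusted p = 0.0009) with vehicle, both under all 6 scalings. Relative to vehicle it was 0.36 (SE 0.13, adjusted p = 0.029) with Tubastatin A, under all 6 scalings, but that call was lost in 6 of 10 fits that left out a library, with changes of 0.34 to 0.38.

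Set against each other within a library, the mitochondrial genes and the peroxins lay closer together with Tubastatin A. The mean log2(RPKM + 1) of the 16 mitochondrial genes minus that of the 12 peroxins was 1.01, 0.94, 0.93 and 1.03 in Tubastatin A cultures, 1.08, 1.18 and 1.08 in vehicle cultures and 1.11, 1.24 and 1.13 in fresh cells. Tubastatin A libraries lay below all others, and vehicle and fresh libraries overlapped. Against all 15 peroxisomal genes the difference was 0.91 to 1.03 with Tubastatin A, 1.13 to 1.21 with vehicle and 1.04 to 1.19 in fresh cells. No test was made of these means, since they rest on a chosen list. Under the authors' scaling, the mean of the peroxins was 3.38 to 3.49 with Tubastatin A, 3.21 to 3.23 with vehicle and 3.29 to 3.39 in fresh cells. That of the mitochondrial genes was 4.31 to 4.52 with Tubastatin A, 4.29 to 4.39 with vehicle and 4.41 to 4.63 in fresh cells, so the mitochondrial means overlapped between both cultures and those of the peroxins did not.

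Ratios of 2 genes in the same library do not depend on how the library was scaled. Acadvl over Acadm was 4.57 ± 0.623 in Tubastatin A cultures (SD, n = 4), 1.19 ± 0.035 in vehicle cultures (SD, n = 3) and 1.94 ± 0.0967 in fresh cells (SD, n = 3). Its libraries did not overlap between any 2 groups. Etfa over Etfb was 41.8 ± 5.14 with Tubastatin A, 14.4 ± 1.63 with vehicle and 31.0 ± 7.39 in fresh cells, and vehicle cultures lay below all others. The size of this ratio is limited by Etfb, with 175 to 435 reads per library and 58.2% of its exon bases shared with other genes. Cpt1a over Cpt2 was 3.58 ± 0.194 with Tubastatin A, 1.42 ± 0.246 with vehicle and 4.69 ± 1.71 in fresh cells, with fresh replicate 2 at 2.72 and fresh replicates 1 and 3 at 5.67 each. Acaa1a over Hsd17b4, which are both peroxisomal, was 1.31 ± 0.112 with Tubastatin A, 0.53 ± 0.102 with vehicle and 1.48 ± 0.225 in fresh cells. Acaa1a over Acaa2, the thiolases of both organelles, was 1.13 ± 0.113 with Tubastatin A, 0.333 ± 0.0356 with vehicle and 0.631 ± 0.0746 in fresh cells, with no overlap between groups. Acadl over Acadm differed in another way, at 7.31 ± 0.27 with Tubastatin A, 5.72 ± 0.279 with vehicle and 2.74 ± 0.38 in fresh cells. Here fresh cells were lowest. Hadha over Hadhb, the subunits of 1 protein, was 0.714 ± 0.072 with Tubastatin A, 0.862 ± 0.043 with vehicle and 0.616 ± 0.156 in fresh cells, with vehicle cultures highest. A ratio shows that a pair changed unequally and does not say which of them changed.

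**Figure D3:**
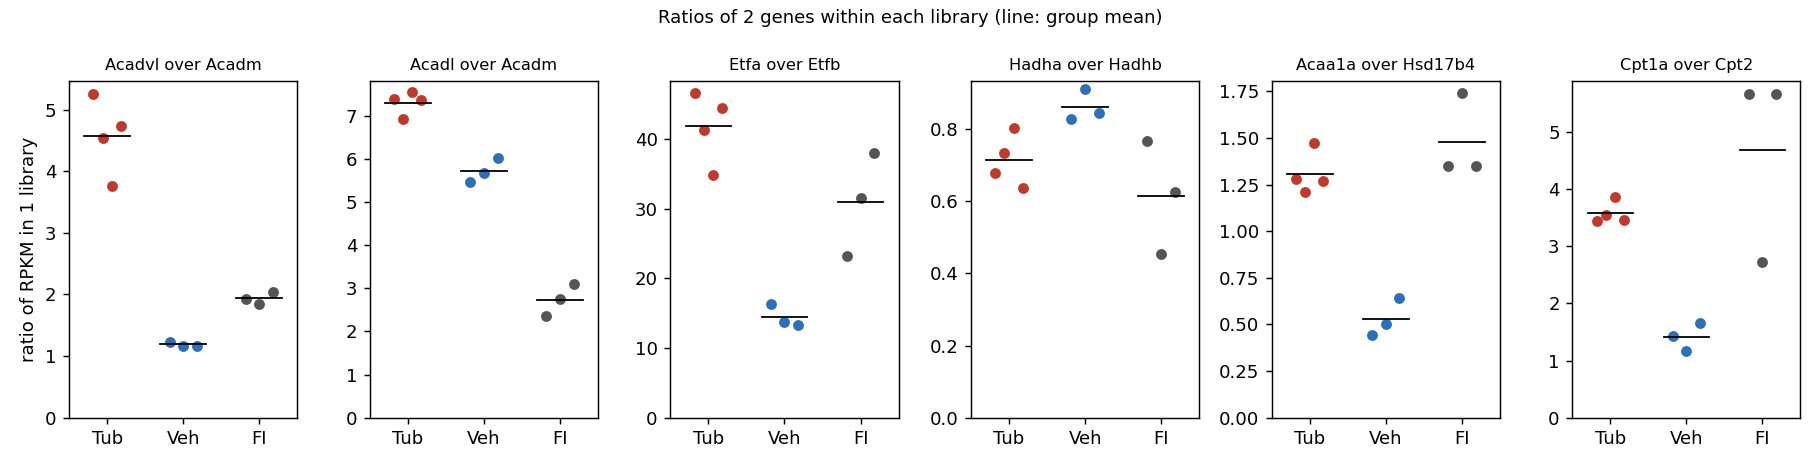
Ratio of the RPKM of 2 genes in each library (linear axis from 0), with points for libraries and a line for the group mean. Acadvl over Acadm, Etfa over Etfb, Acaa1a over Hsd17b4 and Cpt1a over Cpt2 are lowest in the 3 vehicle (Veh) libraries, and Acadl over Acadm is lowest in the 3 fresh (FI) ones.

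**Figure D4:**
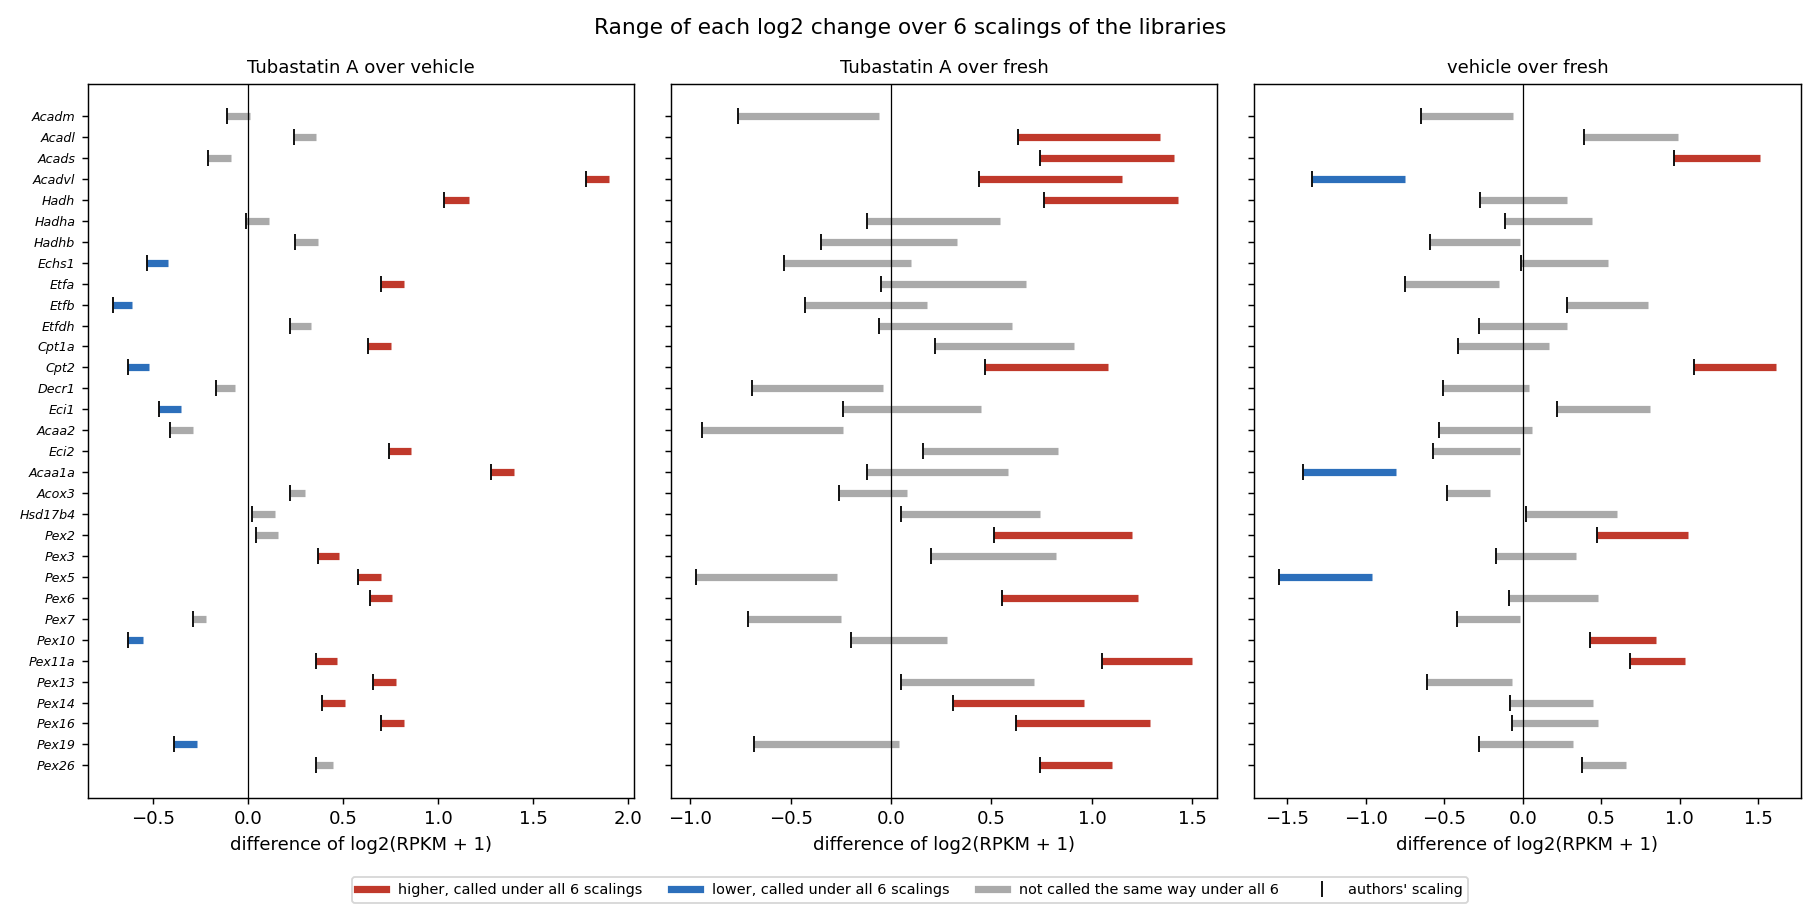
Range of the log2 change of each gene over 6 scalings of the libraries, with a tick at the authors' scaling and colour where a gene was called in the same direction under all 6. Between Tubastatin A and vehicle 13 genes were called higher and 6 lower throughout, between Tubastatin A and fresh cells 11 and 0, and between vehicle and fresh cells 5 and 3.

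Other genes of these pathways were read from further lists. Of 31 other peroxisomal enzymes and membrane proteins, 18 were higher (29.6% of all genes) and 9 lower (29.7%) with Tubastatin A relative to vehicle. Their median was 0.35, against 0.02 over all genes. In vehicle cultures relative to fresh cells, 10 were higher and 12 lower under the authors' scaling, together 71% against 67.0% of all genes. Ephx2, an epoxide hydrolase, had 10.1, 10.7, 11.2 and 12.6 RPKM with Tubastatin A, 0.0923, 0.0658 and 0.198 RPKM with vehicle and 3.85, 4.68 and 3.28 RPKM in fresh cells. Its change between Tubastatin A and vehicle was 3.44 (SE 0.13, adjusted p = 2.4e-09), from 7 to 1570 reads per library. Cat, the catalase that removes hydrogen peroxide, had 147.3, 132.3, 124.6 and 140.3 RPKM with Tubastatin A, 63.7, 60.1 and 57.5 RPKM with vehicle and 49.6, 46.5 and 43.1 RPKM in fresh cells, and its change relative to vehicle was 1.16 (SE 0.11, adjusted p = 2.4e-06). Ehhadh, the other bifunctional enzyme, had a change of 0.52 (adjusted p = 0.0021) relative to vehicle. Gnpat, which starts ether lipid synthesis, went the other way: it had 24.2, 23.6, 19.6 and 22.9 RPKM with Tubastatin A, 53.2, 53.0 and 55.3 RPKM with vehicle and 23.3, 18.9 and 21.2 RPKM in fresh cells. Its change was -1.22 (SE 0.11, adjusted p = 1.8e-06) relative to vehicle. Pxmp2, a channel of the peroxisomal membrane, likewise had a change of -1.35 (SE 0.12, adjusted p = 1.5e-06), from 9 to 169 reads per library. Without Tubastatin A replicate 2 the list of 31 gave 15 higher and 9 lower, where 3453 and 3542 of all genes were.

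Of 26 other mitochondrial genes of fatty acid and acyl-CoA breakdown, 6 were higher and 6 lower with Tubastatin A relative to vehicle, with a median of -0.03. Together these were 46.2% of the 26, against 59.3% of all genes. Crat, which moves acetyl groups between CoA and carnitine, had 21.9, 24.4, 22.8 and 23.7 RPKM with Tubastatin A, 7.61, 7.98 and 8.08 RPKM with vehicle and 7.42, 5.27 and 7.22 RPKM in fresh cells. Its change was 1.44 (SE 0.12, adjusted p = 9.7e-07) relative to vehicle. Acadsb, a dehydrogenase of short branched chains, was higher with Tubastatin A than with vehicle by 1.55 (SE 0.14, adjusted p = 1.7e-06), and its change between vehicle and fresh cells was -2.57 (SE 0.14, adjusted p = 2.4e-08). Slc25a20, the carrier that exchanges acylcarnitines across the inner membrane between both carnitine palmitoyltransferases, had a change of 0.08 (SE 0.15, adjusted p = 0.68) between Tubastatin A and vehicle. Of 21 genes of uptake and activation, 6 were higher and 8 lower relative to vehicle, together 66.7% against 59.3% of all genes. Slc27a1, a fatty acid transporter of the plasma membrane, had 13.0, 14.4, 16.0 and 16.4 RPKM with Tubastatin A, 2.76, 2.93 and 2.98 RPKM with vehicle and 33.4, 28.0 and 25.9 RPKM in fresh cells. Its change relative to vehicle was 2.03 (SE 0.12, adjusted p = 6.3e-08), while that of Slc27a3, of the same family, was -2.11 (SE 0.12, adjusted p = 6.2e-08). Fabp3, which binds fatty acids in the cytoplasm, was higher with Tubastatin A than with vehicle by 1.55 (SE 0.12, adjusted p = 4.6e-07). It rests on 8 to 131 reads per library. Between vehicle and fresh cells 6 of the 21 were higher and 13 lower under the authors' scaling, together 90.5% against 67.0% of all genes. The lowest change was that of Cd36, a fatty acid receptor that endothelial cells also express, at -3.94 (SE 0.22, adjusted p = 2.2e-08). It rests on 7 to 2642 reads per library. Endothelial markers given above were lower too, and their part in the change of Cd36 was not tested.

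Of 21 regulators and genes that respond to PPAR nuclear receptors, 4 were higher and 5 lower with Tubastatin A relative to vehicle, with a median of -0.03. Together these were 42.9% of the 21, against 59.3% of all genes. Without fresh replicate 1 the counts were 7 and 6, where 4139 and 4097 of all genes were called. Ppard, a receptor of this family, had 0.819, 0.794, 1.2 and 0.741 RPKM with Tubastatin A, 0.405, 0.379 and 0.401 RPKM with vehicle and 1.12, 1.37 and 1.66 RPKM in fresh cells. Its change relative to vehicle was 0.43 (SE 0.10, adjusted p = 0.0039). Pdk4, a kinase that shuts off pyruvate oxidation and a common target of these receptors, had 21.4, 23.0, 27.3 and 28.8 RPKM with Tubastatin A, 33.9, 36.5 and 36.9 RPKM with vehicle and 130.4, 118.1 and 173.4 RPKM in fresh cells. It fell by 0.50 (SE 0.15, adjusted p = 0.011) relative to vehicle. Lpin1, a phosphatidate phosphatase and coactivator, was higher with Tubastatin A than with vehicle by 1.33 (SE 0.14, adjusted p = 6.8e-06). Prkaa2, a catalytic subunit of AMP-activated kinase, was higher by 1.03 (SE 0.15, adjusted p = 8.5e-05). Ucp2, an uncoupling protein of the inner membrane, fell by 1.65 (SE 0.21, adjusted p = 3.5e-05). Of 3 genes of organelle division shared by mitochondria and peroxisomes none was called between Tubastatin A and vehicle, and Dnm1l, the dynamin of that machinery, had a change of 0.13 (SE 0.12, adjusted p = 0.41). Hdac6, the target of Tubastatin A, had 7.4, 6.33, 5.74 and 6.92 RPKM with Tubastatin A and 6.32, 6.36 and 5.8 RPKM with vehicle, with a change of 0.08 (SE 0.12, adjusted p = 0.58).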

How the data were processed

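The deposited table holds RPKM computed by the authors for 12803 genes in 10 libraries. Tools were STAR, Subread with featureCounts, Trim Galore and edgeR on mm10, per the submitters' processing notes; versions, settings and use of strand are not given in the sources used here. With union exon lengths of the GENCODE annotation, RPKM gave back whole numbers of reads (tolerance 0.05) in all libraries for 93.7% of 12682 genes and for all 32 described here; this gave the reads and depth stated. Here, limma 3.58.1 (R 4.3.3) was run on log2(RPKM + 1) of every gene, with 1 model for the 3 groups, a trend of variance with level and Benjamini-Hochberg adjustment. The p-values measure the spread between single animals. The 32 genes and the lists were chosen with earlier results of these data known. Of each further list, the 3 genes with the lowest p per comparison and a fixed set of others could be named; some are not reported here. The fit was tested on simulated data. Repeated symbols numbered 7. Alternatives were other scalings, pseudocounts of 0.1 and 5, a filter at a mean of 1 RPKM, voom on the recovered reads, fits on only the groups compared, a replicate block and each library left out.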

Additional observations from a re-analysis of the deposited data

Results flagged for a closer look

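In a screen of 60 genes for a single library far from the rest of the 4 Tubastatin A libraries, 3 genes stood out, 1 of them among the 32. Chance alone marks about 1 group in 20. Pex14, a docking peroxin, had 8.86 RPKM in Tubastatin A replicate 3 and 10.4 to 10.7 RPKM in the other Tubastatin A libraries. Calcr, a receptor of quiescent stem cells, had 1.84 RPKM in Tubastatin A replicate 3 and 2.45 to 2.54 RPKM in the others. Mki67, a proliferation marker, had 0.178 RPKM in Tubastatin A replicate 2, the library with the highest level of Acta1, and 0.0241 to 0.0395 RPKM in the others.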

How the results depend on the processing

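Counts among the 32 genes relative to fresh cells depended on the scaling. Scaled to an equal sum of RPKM, by reads in the table, or by reads without mitochondrial genes and the 10 most abundant genes, 19, 19 and 15 were higher and 3, 3 and 4 lower in vehicle cultures than in fresh cells. Of all 12803 genes, 6280, 6365 and 5823 were then higher and 2892, 2905 and 3206 lower. In Tubastatin A cultures 23, 23 and 21 were higher and 0, 1 and 3 lower than in fresh cells, where 7004, 6916 and 6497 of all genes were higher and 2481, 2590 and 2795 lower. Between Tubastatin A and vehicle no gene named here changed direction with a call under any alternative, and 8 were higher at an adjusted p under 0.01. Leaving out each library in turn gave 10 to 15 higher and 5 to 8 lower between Tubastatin A and vehicle, 5 to 8 higher (8 without fresh replicate 2) and 12 to 15 lower between vehicle and fresh cells, and 9 to 12 higher and 7 to 9 lower between Tubastatin A and fresh cells. Replicate numbers were not used as pairs in the main fit. Correlations of same-numbered libraries ran from -0.168 to 0.329 and those of other pairs from -0.476 to 0.403. These ranges overlap and rest on few libraries per group, so they cannot decide whether the numbers pair the libraries. With a replicate block the counts were 12 higher and 8 lower between Tubastatin A and vehicle, 5 and 12 between vehicle and fresh cells and 9 and 8 between Tubastatin A and fresh cells. Voom on the recovered reads gave 14 and 8, 6 and 12, and 11 and 9 in the same order. Of the 12355 genes fitted by voom, 3968 and 3865, 4074 and 4453, and 3772 and 4484 were called. Counts over all genes are not given for the replicate block, the threshold of 0.01 and most fits without 1 library. Under those 3 scalings, in the order given, log2 changes with the opposite sign between vehicle and fresh cells were Hadh 0.27, 0.28 and 0.15, Hadha 0.44, 0.44 and 0.31, Echs1 0.53, 0.54 and 0.41, Etfdh 0.27, 0.28 and 0.14, Pex6 0.48, 0.48 and 0.35, Pex14 0.45, 0.45 and 0.33, Pex16 0.48, 0.48 and 0.35, and Pex19 0.31, 0.32 and 0.17. Under the leading 2 of them they were also Decr1 0.03 and 0.04, Acaa2 0.05 and 0.06, and Pex3 0.34 and 0.34. Between Tubastatin A and fresh cells they were Hadha 0.54, 0.51 and 0.42, Hadhb 0.33, 0.30 and 0.21, Etfa 0.67, 0.63 and 0.53, Etfb 0.18, 0.15 and 0.06, Etfdh 0.60, 0.57 and 0.48, Eci1 0.45, 0.42 and 0.32, Acaa1a 0.58, 0.55 and 0.45, Acox3 0.08, 0.07 and 0.02, and Hdac6 0.43, 0.41 and 0.32. Under the leading 2 they were also Echs1 0.10 and 0.07, Pex10 0.28 and 0.26, Pex19 0.04 and 0.00, and Ppard 0.04 and 0.02. A change of sign between values that both missed the threshold is not listed. These reversals come with the shift of all genes that the scalings bring. Among the 32 genes depth limits Pex26, Pex11a and Etfb most, with 83, 97 and 175 reads in their shallowest libraries. Some other genes named here fell to fewer reads, with 7 for Ephx2 and Cd36, 8 for Fabp3, 9 for Pxmp2, 12 for Mki67 and 48 for Ehhadh.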
